A study of Mus musculus with 12 samples.

Results

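The epidermal growth factor (EGF) receptor family was followed through 10 genes of mouse dorsal skin, 7 ligands (Areg, Ereg, Hbegf, Tgfa, Epgn, Btc and Nrg1) and 3 receptors (Egfr, Erbb2 and Erbb3). They were chosen by gene name from the 36400 gene IDs of the deposited skin table, and each name matched 1 ID. The 12 libraries of total RNA from dorsal skin fell into 4 groups of 3 libraries. The groups are described as holding 6 mice each, and the labels do not state that each library came from 1 mouse. All mice were female BALB/c, bought at 6 weeks of age, shaved on the back and sampled on day 30. The control group received only the vehicle, acetone mixed with olive oil. The DNCB group was sensitised with 1% 1-chloro-2,4-dinitrobenzene, a contact allergen, between days 0 and 9, and was challenged with 0.5% DNCB between days 12 and 27. The scMSC and scivMSC groups received the same DNCB course and, between days 13 and 25, 4 injections of 2000000 human umbilical cord mesenchymal stem cells (MSCs), given under the dorsal skin (100 µL) in scMSC and divided between dorsal skin (50 µL) and tail vein (50 µL) in scivMSC. A group given DNCB with cell-free injections is not described, so injection and cells cannot be told apart.

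EGF receptor ligands are made as membrane-anchored proteins and are released by proteases of the ADAM family. Amphiregulin (Areg), epiregulin (Ereg), heparin-binding EGF-like growth factor (Hbegf), transforming growth factor alpha (Tgfa), epigen (Epgn) and betacellulin (Btc) bind EGFR, and Hbegf, Ereg and Btc also bind ERBB4. Neuregulin 1 (Nrg1) binds ERBB3 and ERBB4, and ERBB2, which has no known ligand of its own, is the preferred partner of the other receptors. In skin this family is known for driving keratinocyte growth, hair follicle patterning and wound re-epithelialisation.

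Library totals ran from 63877153 to 75134001 estimated read counts, and replicates of a group correlated at 0.979 to 0.992 across genes. Levels are given as FPKM, in which fragments are scaled by transcript length and by library size, so that genes can be compared with each other. Differences are log2 fold changes ± SE from 1 edgeR model over all 12 libraries, tested on the 21890 genes whose mean over all libraries reached 0.1 FPKM. The thresholds rested on p values adjusted by Benjamini-Hochberg. A gene passed at an adjusted p under 0.05, and it was called where, in addition, the log2 fold change lay beyond 1 in either direction. Control skin held far more skeletal muscle transcript than the other groups, with 7 muscle markers summing to between 16800 and 23700 FPKM against 4780 to 12600 FPKM elsewhere. The edgeR scaling takes account of such differences in makeup and FPKM does not, so a ratio of FPKM means can differ from the fitted fold change. In whole skin, fewer cells of a type and less RNA per cell cannot be told apart.

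Of the 7 ligands, 4 lie in 1 stretch of chromosome 5 (GRCm38), spanning 376 kb from Epgn (chr5:91027464-91035215, plus strand) through Ereg (chr5:91074622-91093646, plus) and Areg (chr5:91139599-91148432, plus) to Btc (chr5:91357261-91402994, minus). Epgn and Areg rose in DNCB skin, and the bases just upstream of them are shown because these were the 2 cluster members that passed in DNCB minus control. The sequences are from RefSeq (GRCm38.p6), read on the plus strand up to the base before the first base of the gene in the deposited table, with TATA box letters (TATAAA) and cyclic AMP response element letters (TGACGTCA) in capitals.
Areg (chr5:91139349-91139598): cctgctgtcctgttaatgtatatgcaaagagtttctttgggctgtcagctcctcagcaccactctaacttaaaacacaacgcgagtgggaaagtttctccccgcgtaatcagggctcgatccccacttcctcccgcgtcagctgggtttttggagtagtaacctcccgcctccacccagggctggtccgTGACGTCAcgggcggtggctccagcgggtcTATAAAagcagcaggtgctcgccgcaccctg
Epgn (chr5:91027267-91027463): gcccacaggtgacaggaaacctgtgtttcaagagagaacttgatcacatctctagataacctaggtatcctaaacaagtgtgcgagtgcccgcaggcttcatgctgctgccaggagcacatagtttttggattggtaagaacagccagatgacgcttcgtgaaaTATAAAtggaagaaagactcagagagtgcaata
The TATA letters began 31 bases before the end of the Areg sequence and 33 bases before the end of the Epgn sequence. On either strand, TATAAA was present in 12.4% of 32851 RefSeq windows of 250 bases before a start site. It was present in 9.05% of them when only the 197 bases farthest from the start site were read. These match the Epgn window, which is shorter because the deposited gene begins upstream of the RefSeq start site. The Epgn TATA letters therefore lie farther from the RefSeq start site than from the end of the sequence shown. The response element letters, which read the same on both strands and do not overlap the TATA letters, began 61 bases before the end of the Areg sequence and were present in 1.55% of the 250-base windows. AP-1 letters (TGANTCA, which read the same on both strands) were in neither sequence and in 6.75% of all windows. Upstream sequences matched 6 of the 10 members by symbol. Those of Btc, Tgfa, Egfr and Erbb2 are not shown, and none of these 4 held any of the 3 motifs. These matches describe letters only.

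Areg encodes amphiregulin, an autocrine growth factor of keratinocytes. Its level was 1.28, 1.62 and 1.21 FPKM in the 3 control libraries and 21.4, 7.48 and 16.4 FPKM in the 3 DNCB libraries. It was 4.20, 10.2 and 6.29 FPKM in scMSC and 6.68, 7.05 and 3.59 FPKM in scivMSC. Every library of the 3 DNCB-treated groups was above every control library, whereas DNCB and scMSC overlapped. Areg rose in DNCB over control by 3.26 ± 0.47 (adjusted p = 0.00118), a 9.58-fold difference. It was also higher than control in scMSC, by 2.18 ± 0.45 (adjusted p = 0.00801), and in scivMSC, by 1.87 ± 0.45 (adjusted p = 0.0207). Areg was thus called in all 3 comparisons with control. Its lower means with MSCs did not pass against DNCB, the differences being 1.08 ± 0.43 for DNCB minus scMSC (95% interval 0.13 to 2.03, adjusted p = 0.139) and 1.39 ± 0.43 for DNCB minus scivMSC (0.43 to 2.34, adjusted p = 0.0791). The scivMSC call against control was lost in 4 of the 12 fits that left out 1 library, with adjusted p up to 0.0797 without control replicate 1. It was also lost without control replicate 3, scivMSC replicate 1 or scivMSC replicate 2.

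Epgn encodes epigen, a low-affinity EGFR ligand of epithelia. Control libraries held 2.45, 1.59 and 2.33 FPKM, and DNCB libraries 46.8, 18.7 and 40.3 FPKM. The scMSC libraries held 3.21, 5.75 and 3.59 FPKM, and the scivMSC libraries 3.39, 19.8 and 3.49 FPKM. DNCB lay wholly above control and scMSC, and scivMSC replicate 2 stood inside the DNCB range while its 2 companions lay near control. Epgn rose in DNCB by 3.86 ± 0.69 over control (adjusted p = 0.00285), 14.5-fold and the largest difference among the 10 genes in this comparison. It was lower in scMSC, DNCB minus scMSC being 3.03 ± 0.66 (adjusted p = 0.0135), a call that missed the threshold only without scMSC replicate 3 among the single-library omissions (adjusted p = 0.0523). DNCB minus scivMSC was 2.00 ± 0.63 (adjusted p = 0.0819), and without scivMSC replicate 2 it was 3.31 (adjusted p = 0.00337). Neither MSC group passed against control, at 0.83 ± 0.62 in scMSC (adjusted p = 0.396) and 1.86 ± 0.64 in scivMSC (adjusted p = 0.0804), the latter passing without scivMSC replicate 3 (adjusted p = 0.0448) and falling to 0.55 without scivMSC replicate 2 (adjusted p = 0.455).

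Hbegf encodes heparin-binding EGF-like growth factor, a ligand of keratinocyte migration in wounds. Its levels were 1.96, 2.16 and 2.04 FPKM in control, 8.64, 4.25 and 7.12 FPKM in DNCB, 2.27, 2.45 and 2.54 FPKM in scMSC, and 2.23, 4.86 and 1.98 FPKM in scivMSC. The pattern was that of Epgn at a smaller size, with all DNCB libraries above control and scMSC and with scivMSC replicate 2 again apart from its group. Hbegf rose in DNCB over control by 1.51 ± 0.33 (adjusted p = 0.00716) and was lower in scMSC than in DNCB, the difference being 1.43 ± 0.33 (adjusted p = 0.0162). The second call was lost without DNCB replicate 1 (adjusted p = 0.066), DNCB replicate 3 (0.0508) or scMSC replicate 2 (0.0503). DNCB minus scivMSC was 1.14 ± 0.32 (adjusted p = 0.0555), and 1.63 without scivMSC replicate 2 (adjusted p = 0.00688). Against control, Hbegf differed by 0.08 ± 0.32 in scMSC (95% interval -0.63 to 0.79) and by 0.37 ± 0.32 in scivMSC (-0.34 to 1.08), and neither passed.

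Nrg1 (chr8:31814551-32884797, minus strand) encodes neuregulin 1, best known as a Schwann cell and cardiac growth factor. It was the lowest of the 10 genes, with 0.06, 0.07 and 0.05 FPKM in control, 0.68, 0.69 and 0.73 FPKM in DNCB, 0.12, 0.11 and 0.09 FPKM in scMSC and 0.15, 0.34 and 0.05 FPKM in scivMSC. These levels rested on 55 to 82 estimated counts per library in control and 796 to 925 in DNCB. The DNCB libraries were close together and above all 9 others. Nrg1 rose in DNCB over control by 3.31 ± 0.54 (adjusted p = 0.00196). DNCB minus scMSC was 2.69 ± 0.53 (adjusted p = 0.00832) and DNCB minus scivMSC was 1.99 ± 0.51 (adjusted p = 0.0381). The scivMSC call was lost in 8 of the 12 single-library omissions, including each control and each DNCB library, with adjusted p up to 0.132 without scivMSC replicate 1, and was lost when only the 6 libraries compared were fitted (adjusted p = 0.108). Neither MSC group passed against control, at 0.62 ± 0.51 in scMSC (adjusted p = 0.444) and 1.31 ± 0.51 in scivMSC (adjusted p = 0.12), where scivMSC passed without its replicate 3 (adjusted p = 0.0101) and was at 0.50 without its replicate 2 (adjusted p = 0.517). The annotated genes Gm26578 and Gm22140 lie on the other strand within Nrg1, and their reads could not be told apart without strand information.

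**Figure D1:**
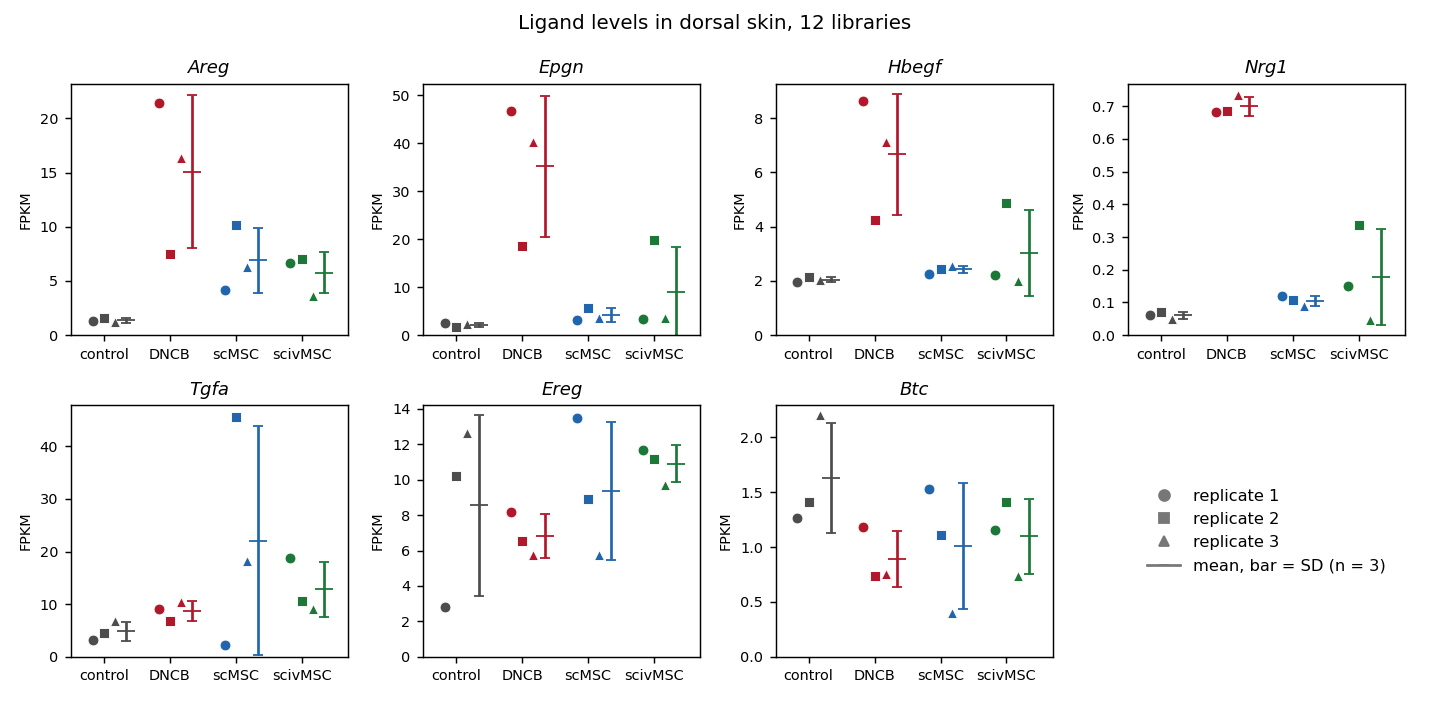
Level of each ligand in FPKM (vertical axes, linear and starting at 0) in the control, DNCB, scMSC and scivMSC groups, with 1 point per library and a bar for mean ± SD (n = 3, cut off at 0). Areg, Epgn, Hbegf and Nrg1 were above every control library in all DNCB libraries, scivMSC replicate 2 (square) stood apart from its group for Epgn, Hbegf and Nrg1, and Tgfa in scMSC spread from 2.34 to 45.5 FPKM.

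The other 3 ligands passed in none of the 6 comparisons with all libraries included. Tgfa (chr6:86195223-86275719, plus strand) encodes transforming growth factor alpha, whose loss gives mice wavy hair. Its levels were 3.23, 4.51 and 6.81 FPKM in control, 9.12, 6.74 and 10.4 FPKM in DNCB, 2.34, 45.5 and 18.3 FPKM in scMSC and 18.7, 10.6 and 9.02 FPKM in scivMSC. It was the most variable member within a group, scMSC holding both its lowest and its highest library. Tgfa in DNCB minus control was 0.68 ± 0.74 (adjusted p = 0.557), and scMSC minus control was 2.08 ± 0.77 (adjusted p = 0.0847). Without scMSC replicate 1 both the comparison of scMSC with control (adjusted p = 0.00423) and that of DNCB with scMSC (adjusted p = 0.0185, Tgfa higher in scMSC) passed. Without scMSC replicate 2, its highest library, they were 0.84 (adjusted p = 0.464) and -0.21 (adjusted p = 0.916). The sum of 10 hair shaft and inner root sheath markers also differed widely within these groups, at 6610, 18500 and 9770 FPKM in the scMSC libraries against 10.1 to 357 FPKM in control and 306 to 945 FPKM in DNCB. Its part in the Tgfa values was not tested.

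Ereg, for epiregulin, was at 2.84, 10.2 and 12.6 FPKM in control and 8.18, 6.55 and 5.76 FPKM in DNCB. It was at 13.5, 8.91 and 5.74 FPKM in scMSC and 11.7, 11.2 and 9.70 FPKM in scivMSC. The control and scMSC ranges overlapped those of all other groups, with a low value in control replicate 1. All DNCB libraries lay below all scivMSC libraries, but Ereg did not pass in DNCB minus scivMSC, at -0.67 ± 0.44 (adjusted p = 0.408). Its difference in DNCB minus control was -0.50 ± 0.44 (95% interval -1.46 to 0.47, adjusted p = 0.455), so that a change of the size seen for its neighbours Epgn and Areg lay outside the interval. Without control replicate 1 it was -0.94 and Ereg passed as lower in DNCB (adjusted p = 0.0496), and the other single-library omissions did not pass. Gm19610 overlaps Ereg on the other strand. Btc, for betacellulin, was at 1.27, 1.41 and 2.20 FPKM in control, 1.18, 0.74 and 0.75 FPKM in DNCB, 1.53, 1.11 and 0.40 FPKM in scMSC and 1.16, 1.41 and 0.73 FPKM in scivMSC. All 3 DNCB libraries lay below control, but DNCB minus control, -1.04 ± 0.44 (95% interval -2.01 to -0.07), did not pass (adjusted p = 0.111). It passed without scMSC replicate 3 (adjusted p = 0.0319) and with only the 6 libraries compared (adjusted p = 0.0379). Within 1 cluster, then, Epgn and Areg rose in DNCB and Ereg and Btc did not pass. The genes on either side of the cluster were Mthfd2l, a mitochondrial folate enzyme gene, with a difference of -0.25 (adjusted p = 0.579), and Parm1, which passed with 0.92 ± 0.20 (adjusted p = 0.00664). Beyond Mthfd2l lies the neutrophil chemokine gene Cxcl2, which rose by 6.38 ± 1.60 (adjusted p = 0.0144).

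Summed over the 7 genes, ligand level was 13.1, 21.6 and 27.3 FPKM in control, 96.0, 45.1 and 81.4 FPKM in DNCB, 27.2, 74.0 and 36.9 FPKM in scMSC and 44.0, 55.3 and 28.6 FPKM in scivMSC. The lowest DNCB library was above every control library and below 1 library in each MSC group. The makeup also differed between libraries. Epgn was the highest ligand in all 3 DNCB libraries, at 41.4% to 49.4% of the sum, and in scivMSC replicate 2, at 35.8%. In the other 8 libraries Epgn made up 7.38% to 18.7%, and either Tgfa or Ereg was highest. The sum of scMSC replicate 2 was 61.5% Tgfa.

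**Figure D2:**
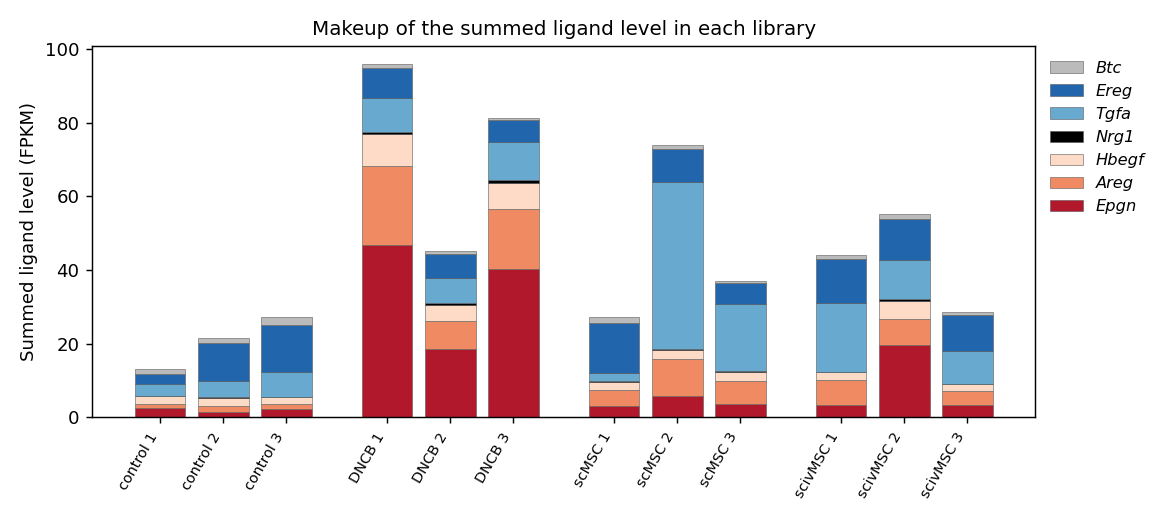
Summed level of the 7 ligands in FPKM (vertical axis, linear, starting at 0) in each of the 12 libraries, with each bar divided by ligand. Epgn (lowest segment) took 41.4% to 49.4% of the sum in the DNCB libraries and 35.8% in scivMSC replicate 2, while Tgfa took 61.5% in scMSC replicate 2.

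Among the receptors, Egfr (chr11:16752203-16918158, plus strand), which binds 6 of these ligands, was at 4.78, 5.41 and 6.58 FPKM in control and 9.97, 9.53 and 10.8 FPKM in DNCB. It was at 12.4, 12.7 and 12.6 FPKM in scMSC and 12.5, 13.1 and 9.18 FPKM in scivMSC. All 9 DNCB-treated libraries were above all control libraries, with or without MSCs. Egfr rose over control by 0.68 ± 0.13 in DNCB (adjusted p = 0.0045), 1.01 ± 0.13 in scMSC (adjusted p = 0.00126) and 0.87 ± 0.13 in scivMSC (adjusted p = 0.00523). Of these only the scMSC difference reached the fold threshold, which it passed by little and lost in 4 of 10 other settings and 4 of 12 single-library omissions, in all of which its adjusted p stayed under 0.05. Egfr did not pass between DNCB and either MSC group, at -0.34 ± 0.13 for DNCB minus scMSC (95% interval -0.63 to -0.05, adjusted p = 0.13) and -0.20 ± 0.13 for DNCB minus scivMSC (-0.49 to 0.09, adjusted p = 0.42). Egfros overlaps Egfr on the other strand.

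Erbb2 (chr11:98412470-98437716, plus strand) was at 18.5, 17.7 and 22.4 FPKM in control, 20.4, 22.2 and 20.8 FPKM in DNCB, 25.2, 29.1 and 26.2 FPKM in scMSC and 29.4, 25.5 and 24.6 FPKM in scivMSC. Erbb3 (chr10:128567523-128589652, minus strand) was at 16.3, 16.7 and 25 FPKM in control, 23.9, 18.8 and 22.8 FPKM in DNCB, 28.5, 28.6 and 25.3 FPKM in scMSC and 32.3, 29.3 and 24.5 FPKM in scivMSC. Both were higher than Egfr in every library and passed in no comparison in the edgeR model of all libraries. The intervals for DNCB minus control were narrow, from -0.33 to 0.20 for Erbb2 and from -0.35 to 0.35 for Erbb3. DNCB minus scMSC was -0.37 ± 0.12 for Erbb2 (adjusted p = 0.0683) and -0.36 ± 0.16 for Erbb3 (adjusted p = 0.186), and scMSC minus control was 0.31 ± 0.12 (adjusted p = 0.102) and 0.36 ± 0.16 (adjusted p = 0.147). Other settings took Erbb2 past the threshold in DNCB minus scMSC (adjusted p = 0.0369 with DESeq2, and 0.0479 without scMSC replicate 1), in scMSC minus control (lowest 0.0182, with limma) and in scivMSC minus control (lowest 0.0265, with limma). Erbb3 passed in scivMSC minus control without control replicate 3 (adjusted p = 0.0486) and with limma (lowest 0.0409). Mien1 and Gm25048 overlap Erbb2 on the other strand, and Mir6917 lies within Erbb3 on its own strand. Within the sum of the 3 receptors, the share of Egfr was 12.1% to 13.6% in control and 15.7% to 19.9% in the other groups.

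**Figure D3:**
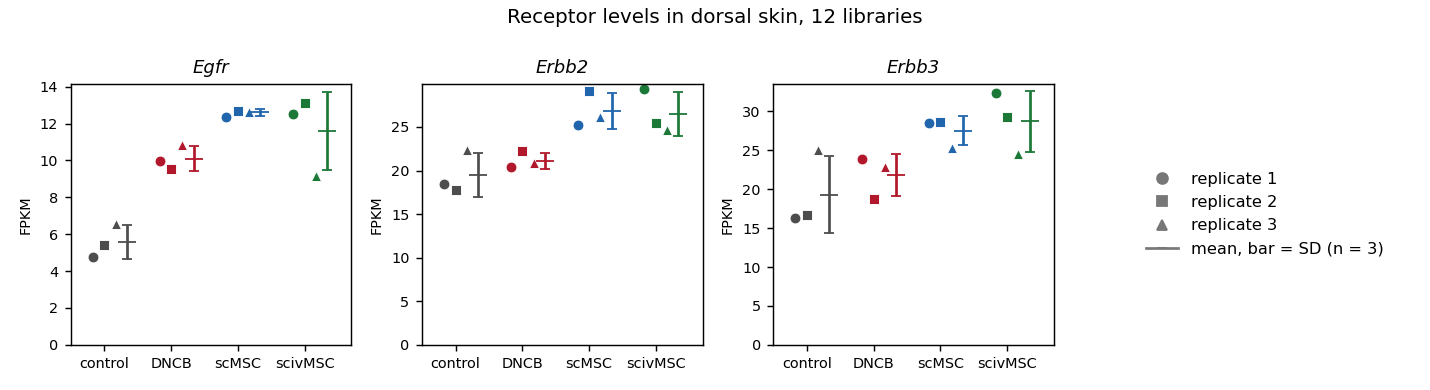
Level of Egfr, Erbb2 and Erbb3 in FPKM (vertical axes, linear and starting at 0) by group, with 1 point per library and a bar for mean ± SD (n = 3). Egfr in the 9 DNCB-treated libraries, at 9.18 FPKM or more, was above the highest control library, at 6.58 FPKM, while Erbb2 and Erbb3 differed by less.

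Counted over the family, 4 of 10 members were called in DNCB minus control, Epgn, Nrg1, Areg and Hbegf, where 14.2% of all tested genes were called, and 5 passed on the adjusted p alone, as did 25.3% of all genes. The median difference was 0.68 over the members and 0.02 over all tested genes. In DNCB minus scMSC 3 members were called (Epgn, Nrg1 and Hbegf) against 8.50% of all genes, and in DNCB minus scivMSC 1 was called (Nrg1) against 5.46%. In scMSC minus control 2 were called (Areg and Egfr) against 9.32%. In scivMSC minus control 1 was called (Areg) against 6.85%, and 2 passed (Areg and Egfr) against 13.2%. Every call was higher in the group named first. Comparisons with DNCB share the DNCB libraries and those with control share the control libraries, so their counts are not independent.

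**Figure D4:**
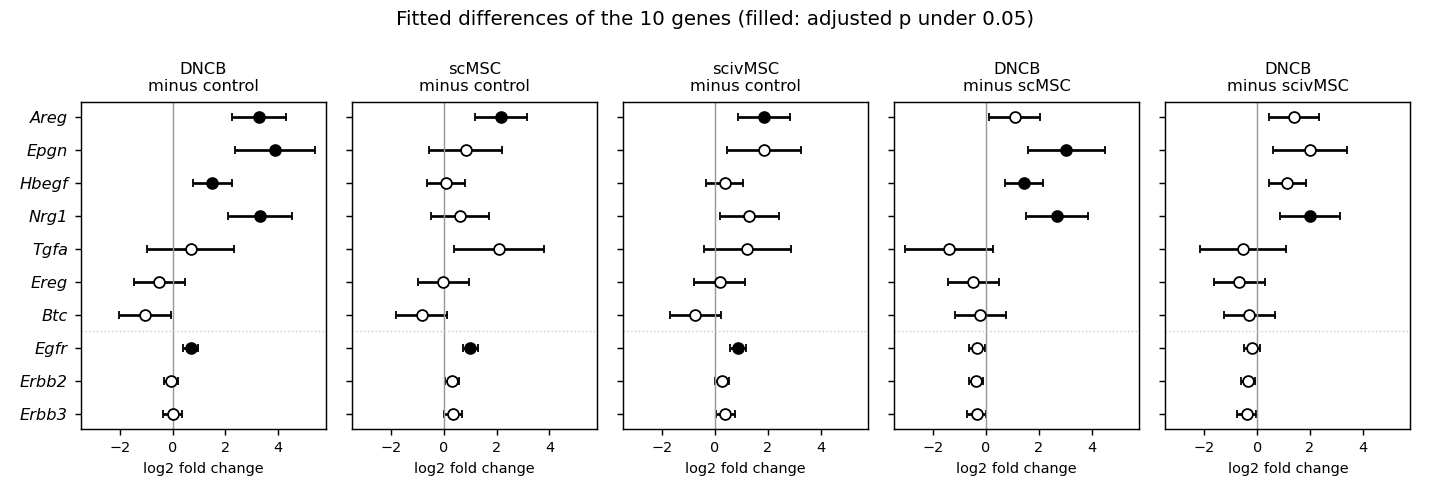
Log2 fold change (horizontal axes) of each of the 10 genes in 5 comparisons, with bars for 95% intervals and filled points for an adjusted p under 0.05. Areg and Egfr are filled in all 3 comparisons with control, Epgn, Hbegf and Nrg1 are filled in DNCB minus control and DNCB minus scMSC, and of the ligands only Nrg1 is filled in DNCB minus scivMSC.

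The 2 MSC groups differed both in route and in the volume given under the dorsal skin. Their direct comparison cannot separate these, so it does not test the route alone. No member passed, the adjusted p running from 0.772 to 0.995, and 1 of the 21890 genes was called (0.00457%), with 1642 genes at an unadjusted p under 0.05 and 115 called by DESeq2. The difference scMSC minus scivMSC was -1.03 ± 0.62 for Epgn (95% interval -2.40 to 0.34), -0.70 ± 0.50 for Nrg1 (-1.80 to 0.41), -0.29 ± 0.32 for Hbegf (-1.0 to 0.42), 0.31 ± 0.43 for Areg (-0.64 to 1.25) and 0.14 ± 0.13 for Egfr (-0.15 to 0.43). The intervals of the ligands are wide and include 0, so a call against DNCB in scMSC and not in scivMSC is not shown to differ between the 2 MSC groups.

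Markers of some skin cell types, and not of others, moved with the 4 ligands that rose. In DNCB minus control 14.2% of all tested genes were called. Of the lists not described below, called higher were 4 of 5 melanocyte, 2 of 7 mast cell and 1 of 6 tested T cell markers. Called lower were 7 of 7 sebaceous gland, 6 of 7 skeletal muscle, 3 of 6 adipocyte and 2 of 7 suprabasal keratinocyte markers. No macrophage and monocyte, endothelial or hair shaft and inner root sheath marker was called. All 6 stress keratinocyte markers (Krt6a, Krt6b, Krt16, Krt17, Sprr1b and Sprr2d) were called higher in DNCB than control, their sum being 569 to 686 FPKM in control, 7690 to 9580 FPKM in DNCB and 707 to 1490 FPKM in scMSC. In scivMSC the sum was 1280, 4880 and 1200 FPKM, so that replicate 2, which was high for Epgn, Hbegf and Nrg1, was also high for these keratins. Areg followed them less closely, since scMSC replicate 3 had 6.29 FPKM of Areg at a marker sum of 707 FPKM, near that of control. Of 7 basal keratinocyte markers 2 were called higher (Krt14 and Krt5) and 1 lower (Krt15) in DNCB. The sum of the 7 was 2200 to 3050 FPKM in control and 8220 to 10500 FPKM in DNCB. Most of the DNCB sum came from Krt14 and Krt5, with means of 6350 and 2900 FPKM. Of 6 fibroblast markers 4 were called higher (sum 232 to 346 FPKM in control, 1920 to 2230 FPKM in DNCB). All 7 neutrophil markers were called higher in DNCB than in every other group, with Ly6g listed at 0 in all 9 libraries outside DNCB. Their sums were 2460 to 3430 FPKM in DNCB, 120 to 207 FPKM in control, 15.8 to 65.3 FPKM in scMSC and 34.3 to 177 FPKM in scivMSC. The DNCB sums came mostly from S100a9 and S100a8, with means of 1970 and 916 FPKM, against 83.0 FPKM for Retnlg, the next highest. Schwann cell markers, a lineage known for neuregulin signalling, summed to 52.4 to 60.8 FPKM in control and 20.8 to 33.8 FPKM in DNCB, with 1 of 6 called lower. Replicate 3 of scivMSC, the lowest of its group for every member but Epgn, also differed in makeup. Its fibroblast markers summed to 124 FPKM against 699 and 946 FPKM in replicates 1 and 2. Its macrophage and monocyte markers summed to 33.5 against 223 and 298 FPKM. Mast cell and endothelial marker sums were likewise lowest in it, and sebaceous gland, skeletal muscle and melanocyte sums highest. The part of these cell types in the ligand levels was not tested.

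**Figure D5:**
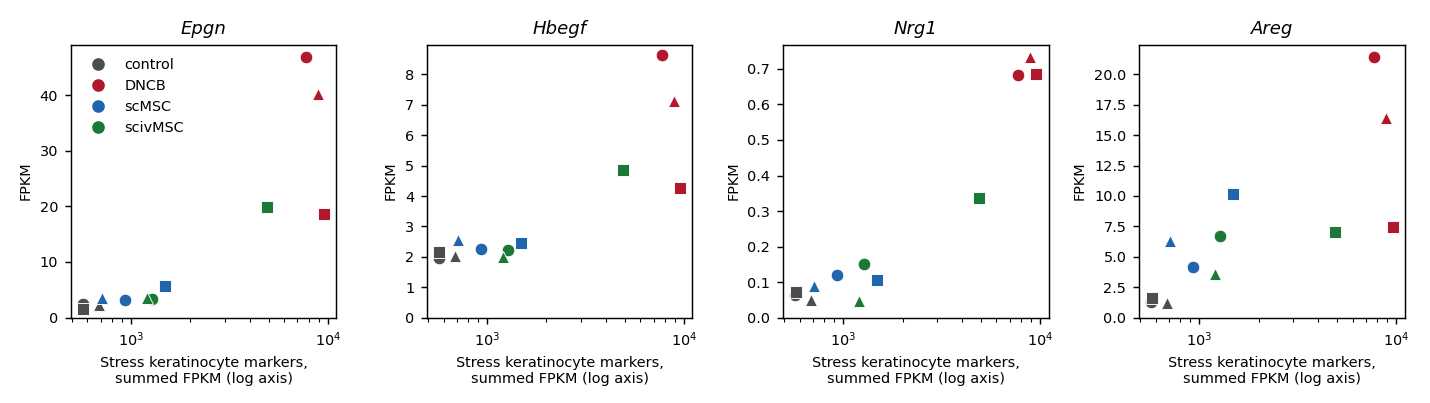
FPKM of Epgn, Hbegf, Nrg1 and Areg (vertical axes, linear, starting at 0) against the summed FPKM of 6 stress keratinocyte markers (horizontal axes, logarithmic), with 1 point per library, coloured by group and with circle, square and triangle for replicates 1, 2 and 3. The DNCB libraries lie at the right, at 7690 to 9580 FPKM of markers, and scivMSC replicate 2 lies between them and the other 8 libraries, at 4880 FPKM.

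Over the 12 libraries, and as a description without a test, Hbegf and Epgn had the highest correlation among the members (Pearson r = 0.96 on log2 library-scaled counts), followed by Epgn and Nrg1 (r = 0.94) and by Hbegf and Nrg1 (r = 0.92). Areg with Epgn was at 0.83. These values share the same libraries and the higher DNCB group mean of all 4 genes. Among 14386 genes whose mean reached 1 FPKM, the 3 most like Epgn were Gm49428 (r = 0.966), Fosl1 (0.965) and Hbegf (0.965), and those most like Hbegf were Fosl1 (0.966), Epgn (0.965) and Tmed9 (0.943). Fosl1 encodes an AP-1 subunit. Areg was nearest to Phlda1 (0.966), Gm17300 (0.962) and Eif4a1 (0.957), Nrg1 to Impdh1 (0.984), Tpm4 (0.982) and Prg4 (0.98), and Egfr to Mical2 (0.985), Nipbl (0.978) and Tasor2 (0.977).

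Of the remaining family genes, Egf, the founding ligand, was at 3.21, 3.12 and 3.13 FPKM in control, 1.59, 1.27 and 1.51 FPKM in DNCB, 1.55, 0.65 and 2.05 FPKM in scMSC and 0.92, 0.82 and 1.39 FPKM in scivMSC. All DNCB-treated libraries were below control, and Egf fell against control by 1.3 on the log2 scale in DNCB (adjusted p = 0.0176), by 1.33 in scMSC (adjusted p = 0.0214) and by 1.75 in scivMSC (adjusted p = 0.00993). Nrg4 was lower in DNCB than control, at -1.33 ± 0.29 (adjusted p = 0.00727), and lower in DNCB than scivMSC, at -1.27 ± 0.29 (adjusted p = 0.0242). Nrg2 was lower in DNCB than scMSC, at -3.10 ± 0.66 (adjusted p = 0.0122). It was also called higher in scMSC than control, and DNCB minus control, at -0.86 ± 0.62, did not pass (adjusted p = 0.354). Mean Nrg2 was highest in scMSC, at 2.63 FPKM, followed by scivMSC (1.39 FPKM), control (0.505 FPKM) and DNCB (0.313 FPKM). Erbb4 and Nrg3 were below the expression filter and were not tested, the mean of Erbb4 being at most 0.067 FPKM in any group. In DNCB minus control, then, the 2 of these 3 tested genes that were called were lower, unlike the 4 called members.

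The list of 10 ligand shedding genes (ADAM and rhomboid proteases and their partners) gave 4 calls in DNCB minus control, all higher, where 14.2% of all genes were called, with a median of 0.60 against 0.02 over all tested genes. They were Adam12 (4.79 ± 0.68, adjusted p = 0.00118), Adam8 (3.34 ± 0.52, adjusted p = 0.00159), Adam19 (1.40 ± 0.42, adjusted p = 0.0337) and Adam10 (1.14 ± 0.13, adjusted p = 0.000608), the last a sheddase of Btc and Egf. Adam17, the main sheddase of Areg, Hbegf, Tgfa, Ereg and Epgn, rose by 0.49 ± 0.15 (adjusted p = 0.0294), which passed without reaching the fold threshold. DNCB was above scMSC for Adam8 (3.75 ± 0.53, adjusted p = 0.00239), Adam12 (3.12 ± 0.63, adjusted p = 0.00956) and, below the fold threshold, Adam17 (0.73 ± 0.15, adjusted p = 0.00931). Against scivMSC Adam8 and Adam12 were called higher in DNCB and Rhbdl2 lower. Adam8 and Adam12 are also made by leukocytes and by mesenchymal cells, of which 7 of 7 neutrophil and 4 of 6 fibroblast markers were called higher in DNCB, and their part in these values was not tested.

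Downstream genes were less uniform. Of 24 signal transduction genes 2 were called in DNCB minus control, Src (1.07 ± 0.11, adjusted p = 0.000474) and Shc1 (1.02 ± 0.27, adjusted p = 0.0189), both higher, a share below the 14.2% of all genes, and the median was 0.10. On the adjusted p alone 10 of the 24 passed, against 25.3% of all genes. In DNCB minus scMSC and DNCB minus scivMSC the single call was Pik3cb, lower in DNCB, where 8.50% and 5.46% of all genes were called. There 7 and 5 of the 24 passed on the adjusted p alone, as did 2786 and 1787 of all 21890 genes. Of 17 feedback inhibitors 2 were called higher in DNCB than control, Socs3 (1.43 ± 0.33, adjusted p = 0.00948) and the ERK phosphatase gene Dusp5 (1.08 ± 0.35, adjusted p = 0.0439), a share again no larger than the 14.2% of all genes. Socs3 was lower with MSCs, DNCB minus scMSC being 2.52 ± 0.34 (adjusted p = 0.0022) and DNCB minus scivMSC 1.92 ± 0.33 (adjusted p = 0.00913). In scMSC it was also called lower than in control, with means of 7.34 and 13.9 FPKM, and it was not called in scivMSC minus control. Dusp5, in contrast, was called higher than control in all 3 DNCB-treated groups, at 1.45 ± 0.35 in scMSC (adjusted p = 0.017) and 1.19 ± 0.35 in scivMSC (adjusted p = 0.0476). Over the whole list of 17 feedback inhibitors, 13 were higher in DNCB than control and the median was 0.50. On the adjusted p alone 7 of the 17 passed in DNCB minus control, against 25.3% of all genes. Errfi1 and Lrig1, which encode direct inhibitors of EGFR, were not among those 7, at 0.16 ± 0.33 and 0.12 ± 0.12.

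Of 14 genes known to respond to ERK, the kinase at the end of the cascade, 7 were called in DNCB minus control, all higher, against 14.2% of all genes, with a median of 1.09. The largest were Ptgs2 (5.02 ± 0.55, adjusted p = 0.000514), Plaur (4.14 ± 0.59, adjusted p = 0.00115) and Fosl1 (3.22 ± 0.69, adjusted p = 0.00684). In DNCB 5 were called higher than in scMSC, against 8.50% of all genes, and 5 higher than in scivMSC, against 5.46%, with Ptgs2, Plaur and Ier3 among those in both. None was called in scMSC or scivMSC against control. Many inputs other than EGFR move these genes, and Phlda1, which was nearest to Areg in pattern, was called in DNCB minus control only, at 1.17 ± 0.22 (adjusted p = 0.00401).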

How the data were processed

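The 12 dorsal skin RNA-seq libraries were taken from 1 deposited table that holds, per gene and library, FPKM values and estimated read counts. The labels name HISAT2 2.0, StringTie 1.3.0, Bowtie 0.12.2 and build mm8; gene coordinates in the table fitted GRCm38, where 36285 of 36400 IDs overlapped their GENCODE M21 position. The FPKM values were computed by the authors per library. The estimated counts deposited by the authors look like coverage-derived values of about 4 per fragment (38.9% to 41.2% of counts from 1 to 18 were multiples of 4), so precision is lower than the totals imply. They are whole numbers and were used as deposited.

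Groups followed the sample titles, with 3 libraries each, and where replicates differ only in number their spread may be in part technical. Counts were fitted with edgeR 4.0.16 (TMM scaling, quasi-likelihood F-test, 1 model of 4 groups, Benjamini-Hochberg over the 21890 genes whose mean reached 0.1 FPKM), with a common biological coefficient of variation of 0.42. Each SE is the log2 fold change divided by the square root of F. Intervals are 95%. Alternatives were other scalings and filters, DESeq2 1.42.0, limma 3.58.1 on log2(FPKM + 0.1 or 1), the compared libraries alone, counts divided by 4, a replicate block and leaving out each library. The fit was tested on simulated data.

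All 10 members were named in every comparison, list genes where called (at most 4 a list, by size, 1 of them not reported here), and for each called member the 3 genes of highest Pearson r of log2(TMM CPM + 1). The members and lists were chosen with earlier results of these data known. Genes named outside this rule (Adam17, Errfi1, Lrig1, and the genomic neighbours of the ligand cluster) were chosen after their values were seen.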

Additional observations from a re-analysis of the deposited data

How the results depend on the processing

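Of 594 refits of a member under another scaling, filter, tool, count scale or set of libraries, 562 kept the direction and the side of the threshold, 1 fell short, 22 newly passed and 9 changed sign. Of 720 refits without 1 library the numbers were 672, 16, 10 and 22. The cause of these changes was not tested. With the replicate block, in which libraries of the same number shared a term, 4, 3, 1, 2, 1 and 0 members were called in DNCB minus control, DNCB minus scMSC, DNCB minus scivMSC, scMSC minus control, scivMSC minus control and scMSC minus scivMSC, the same counts as without it, and 2866, 1566, 845, 1835, 1344 and 1 genes. The samples share only a number, the correlation of deviations running from -0.408 to 0.296 over 18 same-numbered pairs, with 4 over 0.1.

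The members called in DNCB minus scivMSC (1) became 4 with DESeq2, 3 with limma at a pseudocount of 0.1 FPKM, 2 with counts divided by 4 and 0 with the 6 libraries fitted alone. In scMSC minus control (2) they became 1 with RLE size factors, without a filter and with a filter at a mean of 1 FPKM, which also removed Nrg1. In scivMSC minus control (1) they became 2 with total counts alone, DESeq2, limma at 0.1 FPKM and the adjusted p alone. With limma at 1 FPKM, above the level of Nrg1 in every library, the Nrg1 difference shrank to 0.68 in DNCB minus control, 0.62 in DNCB minus scMSC and 0.54 in DNCB minus scivMSC, so that it passed in all 3 and was called in none. Without 1 library the members called ranged from 4 to 5 in DNCB minus control, 2 to 4 in DNCB minus scMSC, 0 to 3 in DNCB minus scivMSC, 1 to 3 in scMSC minus control and 0 to 3 in scivMSC minus control.

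Changes of sign concerned differences that did not pass. With total counts alone, limma at 0.1 FPKM and limma at 1 FPKM, DNCB minus control was 0.113, 0.12 and 0.115 for Erbb2 and 0.173, 0.195 and 0.186 for Erbb3, and scMSC minus control was 0.133, 0.298 and 0.242 for Ereg. Total counts alone also moved the median of all genes from 0.022 to 0.203 in DNCB minus control. Without 1 library, Erbb3 ran from -0.132 to 0.141 in DNCB minus control and Btc from -0.593 to 0.167 in DNCB minus scMSC. Against control, Ereg ran from -0.475 to 0.273 in scMSC and from -0.271 to 0.477 in scivMSC, and Hbegf from -0.033 to 0.15 and from -0.118 to 0.552. In scMSC minus scivMSC the ranges were -0.174 to 0.583 for Areg, -0.508 to 0.063 for Ereg, -0.517 to 0.197 for Hbegf, -0.343 to 1.395 for Tgfa, -1.419 to 0.285 for Epgn, -0.465 to 0.295 for Btc, -1.159 to 0.117 for Nrg1, -0.086 to 0.112 for Erbb2 and -0.134 to 0.036 for Erbb3.

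Genes called over the whole table changed by more than 1.5 times in DNCB minus scivMSC (1195) with DESeq2 (1883), in scMSC minus control (2040) with limma at 1 FPKM (1300), in scivMSC minus control (1500) with 6 libraries alone (795), and in scMSC minus scivMSC (1) with DESeq2 (115), limma at 0.1 FPKM (2) and 6 libraries alone (3). Without 1 library they ranged from 2457 to 3225, 1222 to 2008, 476 to 1442, 1364 to 2326, 843 to 1798 and 1 to 5 over the 6 comparisons in the order above. Of the genes called in DNCB minus control, 1442 of 3098 were higher, and 2020 of 3321 with total counts alone. Depth limits Nrg1 most, with 54 counts in its lowest library.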
